A study of Mus musculus with 16 samples.

Results

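The heat shock proteins and their J-domain co-chaperones were followed in activated mouse macrophages with and without inhibition of γ-secretase. The members are the genes whose symbols start with Hspa, Hspb, Hspd, Hspe, Hsph, Hsp90 or Dnaj, with pseudogene rows (symbols containing -ps) left out. This rule gave 74 of the 47069 genes counted: 13 Hspa, 10 Hspb, 3 Hsp90, 45 Dnaj genes (4 Dnaja, 13 Dnajb and 28 Dnajc) and 1 gene each of Hspd, Hspe and Hsph. By the place where their proteins mainly work, 41 members were assigned to the cytosol or nucleus, 13 to the endoplasmic reticulum (ER), 8 to the mitochondrion and 12 to other or unsure places.

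HSP70 proteins bind and release unfolded chains in an ATP-driven cycle. J-domain proteins bring substrates to HSP70 and trigger ATP hydrolysis, and nucleotide exchange factors reset the cycle. HSP90 acts on late folding steps of kinases and receptors, and the HSP60/HSP10 chaperonin encloses single proteins in the mitochondrial matrix. Each compartment has its own HSP70: Hspa8 and the heat-inducible Hspa1a and Hspa1b in the cytosol, Hspa5 (BiP) in the ER and Hspa9 (mortalin) in mitochondria. HSF1 is the main transcription factor of the cytosolic heat shock response, while ATF6 and XBP1 drive ER chaperones in the unfolded protein response. In macrophages the ER chaperone Hsp90b1 is known for the folding of Toll-like receptors and integrins.

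Macrophages grown from the bone marrow (BMMs) of C57BL/6 mice aged 8 to 10 weeks, with no allele changed, were primed overnight with 10 ng/mL IFNγ. All cells were then activated for 1 hr with 100 ng/mL Salmonella LPS together with IgG-opsonized ovalbumin immune complexes (LPS/ICs). One group received DAPT at 25 μM. It is a GSI, an inhibitor of γ-secretase, and so blocks the cleavage of Notch receptors and of other γ-secretase substrates. The control group received the vehicle DMSO at 0.01%. The study's methods give an overnight incubation with DAPT or DMSO ahead of activation, while some of its figure legends give a shorter pretreatment. Exposure to DAPT thus began before the 1 hr of activation. No unstimulated cells were among the samples, so every value below is from activated cells, and fold changes are GSI against DMSO. There were 2 replicates per group, each counted in 4 runs that were summed to 1 library. The labels do not say that replicates came from separate cultures or animals, so p-values measure only the spread between these samples, which may be technical.

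The 4 libraries held 42694655 to 56932059 counts. By counting error only, a count of 0 in them allows up to 3 counts, or 0.0527 to 0.0703 CPM (counts scaled to equal library sizes). That range uses the total counts, while the other CPM values use adjusted library sizes. All 10 macrophage markers examined were above 1 CPM, with Lyz2 the highest. Their summed level was 13400 and 13640 CPM with DMSO but 10480 and 11460 CPM with GSI. At an FDR under 0.05 in the test described below, 7 of them were lower and 1 higher with GSI. Over all genes tested, 21.9% were lower and 19.0% higher. Among 23 markers of other blood, stromal and epithelial cells, 22 averaged under 1 CPM over the 4 libraries and 8 were at 0 in all libraries. Their sums were 3.18 and 4.07 CPM with DMSO and 3.58 and 3.20 CPM with GSI. The exception, Pecam1, was lower with GSI, at 1.39 and 1.71 against 0.869 and 0.689 CPM (log2 fold change -1.01 ± 0.24 SE, FDR 0.0021). The part of these marker changes in the results below was not tested.

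Of the 74 members, 60 passed the filter on low counts and entered the quasi-likelihood test of edgeR. The p-values were adjusted by Benjamini-Hochberg (FDR) over all 13211 genes tested. At an FDR under 0.05, 12 members were higher and 10 were lower with GSI (5 lower without DMSO replicate 1). This was 20.0% of the tested members higher and 16.7% lower, beside a background of 19.0% higher and 21.9% lower over all genes. In either direction 36.7% of the tested members were called, against 40.8% of all genes. The share of called members was thus near the background, and the calls were spread over the compartments in this way: 6 of 8 mitochondrial members were higher and none lower, 5 of 31 cytosolic and nuclear members were higher and 6 lower, and none of 13 ER members was higher and 3 lower. These counts side by side are a description, and the difference between compartments was not tested. The study's second threshold, an absolute log2 fold change above 1.5, was passed with the FDR by 2.91% of all genes and by 0 members in edgeR, also at an unadjusted p under 0.05. Of the 10 alternatives, 5 put 1 member, Hspa12a, past both, among them DESeq2 and edgeR without the filter. In 42 of the 60 tested members the GSI and DMSO libraries did not overlap (22 with GSI above and 20 below), against 70.6% of all genes (35.8% above and 34.8% below).

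**Figure D1:**
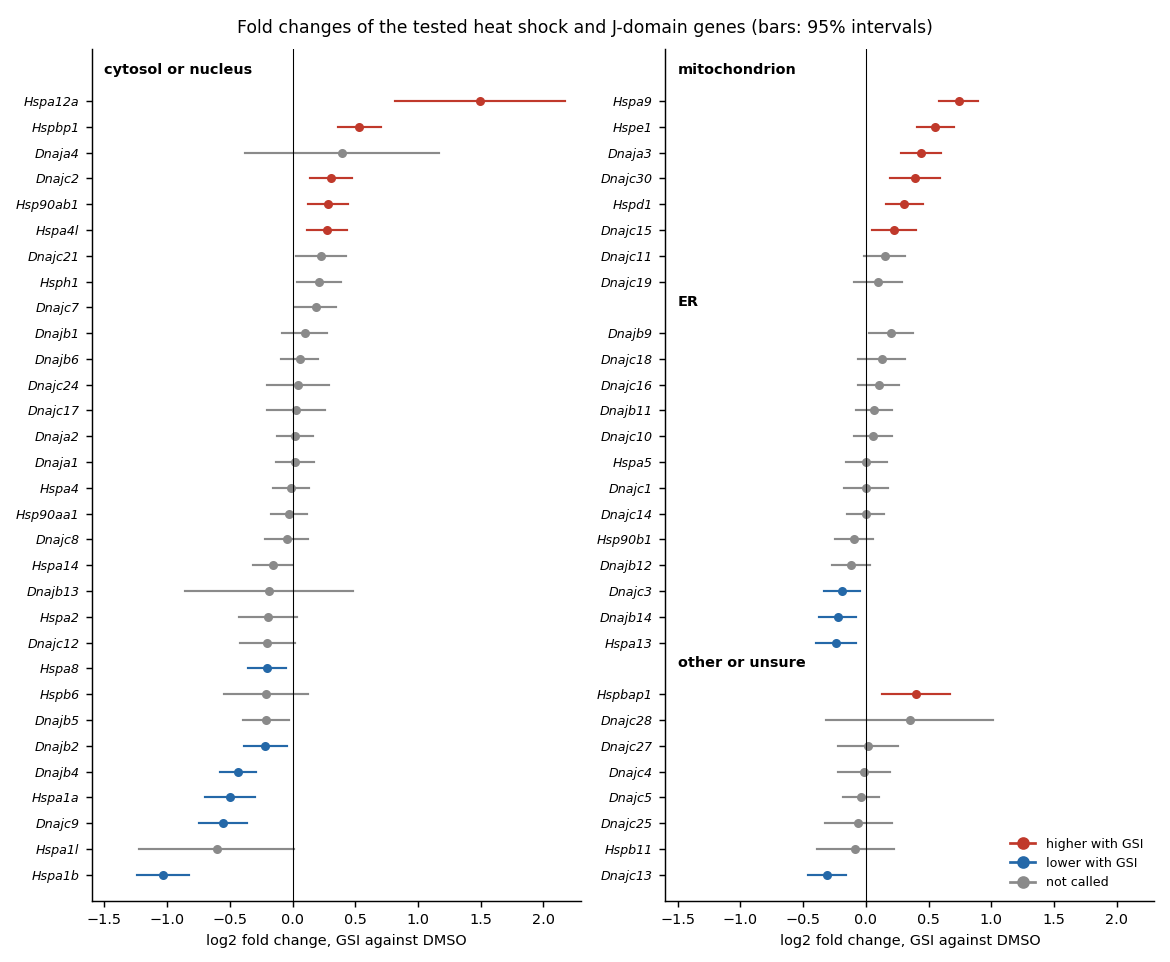
Fold changes of the 60 tested members, as log2 of GSI against DMSO, with 95% intervals from the edgeR fit, in panels by compartment and sorted by size. Red points mark members with an FDR under 0.05 that were higher with GSI, blue points those that were lower and grey points those not called; all 8 mitochondrial points lie right of 0, while cytosolic points lie on both sides and the ER points lie between -0.24 and 0.20.

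The mitochondrial members that passed the test all rose. All 8 had a fold change above 0, 6 were higher with GSI (75.0%, against 19.0% of all genes), and the median log2 fold change was 0.35, against 0.015 over all genes tested. This set was assigned with earlier results of these data known, so the common direction depends on the assignment. Tested members of other or unsure places are not counted here, and 3 of them lay above 0 and 5 below. No mitochondrial member was lower in edgeR, and 0 were lower at an unadjusted p under 0.05 or in DESeq2, which called 5 higher. In 7 of the 8 both GSI libraries lay above both DMSO libraries, as in 35.8% of all genes. Hspa9, the HSP70 that pulls precursor proteins through the inner membrane and folds them in the matrix, changed most. Its level was 291 and 297 CPM with DMSO but 520 and 460 CPM with GSI, from 12523 to 25154 counts per library. The groups were far apart compared with the gap between replicates, at 1.67-fold higher with GSI (log2 fold change 0.74 ± 0.075 SE, n = 2 libraries per group, FDR 1.44e-07). Relative to its cytosolic counterpart Hspa8, Hspa9 stood at a ratio of CPM of 0.177 and 0.184 with DMSO against 0.362 and 0.331 with GSI.

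Hspe1 (HSP10), the lid of the matrix chaperonin, had 41.7 and 41.8 CPM with DMSO and 62.1 and 60.5 CPM with GSI, which was 1.47-fold higher (log2 fold change 0.55 ± 0.072 SE, FDR 3.45e-06). Its partner Hspd1 (HSP60), which forms the barrel, had 101 and 97.6 CPM with DMSO and 123 and 122 CPM with GSI (log2 fold change 0.31 ± 0.069 SE, FDR 0.0013). Both rose in every GSI library, and the ratio of Hspd1 to Hspe1 CPM lay between 2.34 and 2.43 with DMSO and between 1.99 and 2.02 with GSI. The difference between the changes of the chaperonin genes was not tested. The genes are neighbors read in opposite directions: Hspd1 lies at chr1:55077835-55088243 on the minus strand and Hspe1 at chr1:55088132-55091307 on the plus strand of GRCm38, with 112 exon bases in common. RefSeq start sites of the pair stand 215 bases apart. Between them lies a heat shock element, the binding motif of HSF1, in which units GAA and TTC alternate. It is shown because it lies between the starts of the chaperonin genes, both of which rose. Capitals mark the overlapping units, on the plus strand of GRCm38.p6 at chr1:55088053-55088082 (positions -95 to -66 from the Hspe1 start), inside the first exon of a longer annotated Hspd1 transcript.
Hspe1 and Hspd1: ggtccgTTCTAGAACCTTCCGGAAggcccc

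Of the 5 mitochondrial J-domain proteins 3 rose, with a smaller log2 fold change than Hspa9 in each, where 19.0% of all genes were higher. Dnaja3 (Tid1), the J-domain partner of Hspa9 in the matrix, had 27.3 and 26.1 CPM with DMSO and 35.7 and 36.7 CPM with GSI (log2 fold change 0.44 ± 0.077 SE, FDR 0.00012). Dnajc30, a J-domain protein of the inner membrane, had 9.65 and 10.2 CPM against 12.7 and 13.3 CPM (log2 fold change 0.39 ± 0.096 SE, FDR 0.0028). Dnajc15, which sits at the import channel of the inner membrane, had 24.5 and 21.7 CPM against 27.2 and 26.6 CPM (log2 fold change 0.22 ± 0.084 SE, FDR 0.041). Of these, Dnajc15 was the weakest call. Its FDR ran from 0.0089 to 0.380 over 10 alternative analyses and passed 0.05 in 5 of them: with DESeq2 (0.131), with no normalization factors (0.0524), and without DMSO replicate 2 (0.380), GSI replicate 1 (0.105) or GSI replicate 2 (0.0513). Dnajc19, another J-domain protein of the import channel, and Dnajc11, which takes part in the organization of cristae, did not pass the test, at log2 fold changes of 0.10 (95% interval -0.095 to 0.29) and 0.15 (-0.017 to 0.31).

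Of the members that rose, 4 share exon bases with a gene on the other strand that had over 1000 counts summed over the 4 libraries: Dnaja3 (153 bases, Coro7 with 35947 counts), Dnajc30 (436 bases, Wbscr22 with 4013 counts), and Hspd1 and Hspe1 with each other (112 bases, 21899 and 10152 counts). How reads of such pairs were split is uncertain, since the counting was not stated to use strand in the sources used here. Hspa9 has no such neighbor, and the 10 lower members lie opposite genes of at most 18 counts. The left-out pseudogene rows of the chaperonin and the other families held at most 50 counts in any library.

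**Figure D2:**
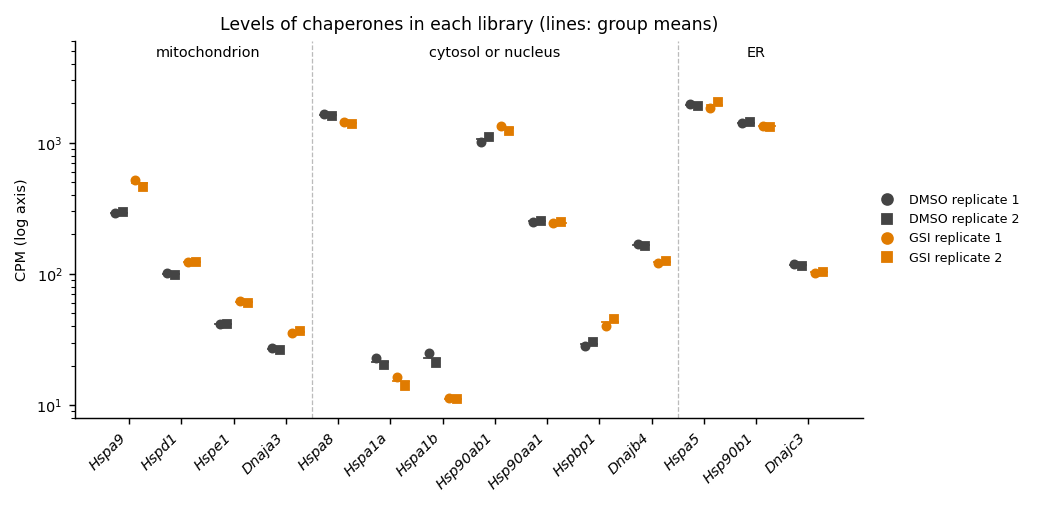
Levels of 14 chaperones in each of the 4 libraries, in CPM on a log axis, grouped by compartment; gray points are DMSO, orange points GSI, circles replicate 1, squares replicate 2 and short lines the group means. Hspa9, Hspd1, Hspe1, Dnaja3, Hsp90ab1 and Hspbp1 are above DMSO in both GSI libraries, and Hspa5 overlaps. The other genes drawn are below, Hsp90aa1 and Hsp90b1 among them without a call.

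Of the 31 cytosolic and nuclear members tested, 5 were higher (16.1%, against 19.0% of all genes) and 6 lower (19.4%, against 21.9%) with GSI, shares near the background, and their median log2 fold change was -0.013 (0.035 without GSI replicate 2). Both inducible HSP70 genes fell. Hspa1b had 1084 and 1182 counts with DMSO but 547 and 548 with GSI, or 25.2 and 20.8 against 11.3 and 11.1 CPM. It was 2.05-fold lower with GSI (log2 fold change -1.03 ± 0.099 SE, FDR 5.85e-08), and no other tested member was lowered by more. Hspa1a had 22.7 and 20.3 CPM with DMSO and 16.5 and 13.9 CPM with GSI (log2 fold change -0.50 ± 0.097 SE, FDR 0.00033).

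These 2 genes are near-identical copies beside each other on chromosome 17 (Hspa1b at chr17:34956436-34959238 and Hspa1a at chr17:34969190-34972156, both on the minus strand), so the split of reads between them is uncertain. Their sum does not depend on that split. It stood at 47.9 and 41.1 CPM with DMSO against 27.8 and 25.0 CPM with GSI, 1.69-fold lower by the means. The 250 bases before their RefSeq starts are equal at 247 positions (98.8%). The last 130 of them are printed because both copies fell and they carry nearly the same promoter, with 1 pair of heat shock units, of the form GAANNTTC, in capitals at positions -104 to -97. On the minus strand of GRCm38.p6, Hspa1a is at chr17:34972157-34972286 and Hspa1b at chr17:34959239-34959368.
Hspa1a: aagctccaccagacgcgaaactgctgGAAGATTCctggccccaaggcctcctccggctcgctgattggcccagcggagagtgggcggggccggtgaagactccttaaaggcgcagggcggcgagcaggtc
Hspa1b: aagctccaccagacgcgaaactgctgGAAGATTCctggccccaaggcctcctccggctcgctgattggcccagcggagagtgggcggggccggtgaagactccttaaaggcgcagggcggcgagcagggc

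The constitutive Hspa8 (HSC70) was a far larger pool. Per kilobase of exons it averaged 354 CPM over the 4 libraries, against 6.18 for Hspa1a and 6.10 for Hspa1b. Hspa8 had 1649 and 1610 CPM with DMSO and 1436 and 1391 CPM with GSI (log2 fold change -0.20 ± 0.073 SE, FDR 0.030). This small fall was called in 7 of 10 alternatives, with FDRs of 0.0056 to 0.162, and was lost without DMSO replicate 1 (0.162), DMSO replicate 2 (0.0834) or GSI replicate 2 (0.0920). Hspa1l, which lies beside Hspa1a and is known from the testis, had 36 and 40 counts against 25 and 24 and was not called (FDR 0.109). The HSP110 proteins are HSP70 relatives that act as nucleotide exchange factors. Among them Hspa4l rose from 33.2 and 30.8 to 38.9 and 38.4 CPM (log2 fold change 0.27 ± 0.077 SE, FDR 0.0071; 0.0990 without DMSO replicate 2, and 0.00045 to 0.0990 over the alternatives). Hsph1, at 19.7 and 22.2 against 24.6 and 23.9 CPM, stood just outside the threshold (log2 fold change 0.21 ± 0.085 SE, FDR 0.055) and was inside it without DMSO replicate 2 (0.033; 0.015 to 0.404 over the alternatives). Hspa4 differed by -0.013 (95% interval -0.16 to 0.13).

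Another exchange factor, Hspbp1, rose from 28.4 and 30.6 CPM with DMSO to 39.97 and 45.4 CPM with GSI (log2 fold change 0.53 ± 0.082 SE, FDR 2.71e-05). Hspbp1 carries the Hspb prefix but is no small heat shock protein. Hspa12a, a distant HSP70 relative, had the largest fold change of the tested members, at 11 and 19 counts against 39 and 44 (log2 fold change 1.49 ± 0.33 SE, FDR 0.0010). It averaged under 1 CPM and lies outside the rule for named genes, so it was chosen after its values were seen. Its change passed 1.5 with DESeq2 (1.51) and without DMSO replicate 2 (1.72) or GSI replicate 1 (1.56), and just passed it without the filter.

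Of the 3 HSP90 genes 1 passed the test (33.3%, against 40.8% of all genes). Hsp90ab1, the constitutive cytosolic form, had 1021 and 1103 CPM with DMSO and 1341 and 1240 CPM with GSI (log2 fold change 0.28 ± 0.076 SE, FDR 0.0058). Without DMSO replicate 1 its FDR was 0.0916, the highest over the alternatives, the lowest being 0.00019. Hsp90aa1, the heat-inducible form, had 250 and 253 CPM with DMSO and 245 and 249 CPM with GSI, and its log2 fold change of -0.027 had a 95% interval of -0.17 to 0.12. The ratio of the constitutive to the inducible form was 4.08 and 4.37 in DMSO against 5.48 and 4.98 in GSI. Hsp90b1, the ER form, is described with the ER members.

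Among cytosolic and nuclear J-domain proteins, Dnajc9, Dnajb4 and Dnajb2 fell and Dnajc2 rose. Dnajb4, a class B partner of HSP70, had 168 and 165 CPM with DMSO and 121 and 126 CPM with GSI (log2 fold change -0.43 ± 0.069 SE, FDR 4.00e-05). Dnajc9, a histone chaperone known to be high in dividing cells, had 15.9 and 16.1 CPM against 10.8 and 11.04 CPM (log2 fold change -0.56 ± 0.091 SE, FDR 5.90e-05). In both genes the replicates were close and the groups well apart. Dnajb2, a J-domain protein with ubiquitin-binding motifs, had 31.3 and 35.9 CPM against 28.3 and 29.6 CPM (log2 fold change -0.22 ± 0.083 SE, FDR 0.042) and was not called with DESeq2 (0.104), without the filter (0.0557), or without DMSO replicate 2 (0.426) or GSI replicate 1 (0.133), with FDRs of 0.0092 to 0.426 over the alternatives. Dnajc2, which works with Hspa14 on the ribosome, rose from 36.1 and 36.1 to 48.0 and 41.2 CPM (log2 fold change 0.31 ± 0.081 SE, FDR 0.0050; 0.102 without GSI replicate 1, and 7.34e-05 to 0.102 over the alternatives). Its partner Hspa14 had 47.0 and 48.8 CPM against 43.0 and 42.8 CPM and was not called (log2 fold change -0.16 ± 0.073 SE, FDR 0.086).

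Dnaja2, Dnaja1 and Dnajb1, cytosolic J-domain partners of HSP70, did not pass the test. Dnaja2 had 273 and 262 CPM with DMSO and 274 and 269 CPM with GSI, a log2 fold change of 0.021 (95% interval -0.12 to 0.17). Dnaja1 differed by 0.018 (-0.13 to 0.17). Dnajb1, the heat-inducible HSP40, had 25.2 and 23.5 CPM against 27.7 and 24.3 CPM, and its log2 fold change of 0.095 had an interval of -0.085 to 0.27. In all 3 genes the groups overlapped.

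The small heat shock proteins were nearly silent. Hspb1 (HSP25), a heat-inducible actin-binding chaperone, had 8 and 3 counts with DMSO against 2 and 6 with GSI, and was too low to test. The genes Hspb2, Hspb3, Hspb7, Hspb8 and Hspb9 had at most 2 counts in any library. Of the small heat shock proteins among the members only Hspb6 was tested, at 2.72 and 2.91 CPM against 2.59 and 2.29 CPM (FDR 0.315). Hspb11, a protein of intraflagellar transport despite its symbol, was not called either (FDR 0.680). In all, 14 members were not tested, with at most 8 counts in any library and 6 of them at 0 in all; Hspa12b, Dnajb3, Dnajb7, Dnajb8, Dnajc5b, Dnajc5g, Dnajc6 and Dnajc22 were the others. At this depth no difference in them was detectable.

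The ER members stayed close to 0. Their fold changes lay between -0.24 and 0.20 on the log2 scale, with a median of 0.0019 (-0.034 to 0.024 with 1 library left out). With edgeR 0 were higher (1 at an unadjusted p under 0.05, and 0 with DESeq2) and 3 were lower (23.1%, against 21.9% of all genes). The major chaperones did not pass the test. Hspa5 (BiP), the HSP70 of the ER, had 1961 and 1901 CPM with DMSO and 1830 and 2040 CPM with GSI, overlapping groups with a log2 fold change of 0.0033 (95% interval -0.16 to 0.16). Hsp90b1 (GRP94) had 1408 and 1441 CPM with DMSO and 1347 and 1327 CPM with GSI, a log2 fold change of -0.092 (-0.24 to 0.060, FDR 0.334). These intervals do not reach a change as large as that of Hspa9 in either direction, but they reflect only the spread between these samples, which may be technical.

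Hspa13, a short HSP70-like protein of microsomes, had 48.0 and 45.7 CPM with DMSO and 38.0 and 41.4 CPM with GSI (log2 fold change -0.24 ± 0.076 SE, FDR 0.017). Dnajb14, a J-domain protein of the ER membrane facing the cytosol, had 71.1 and 69.3 CPM against 60.9 and 59.3 CPM (log2 fold change -0.23 ± 0.071 SE, FDR 0.015). Dnajc3 (p58IPK), a luminal co-chaperone also known as an inhibitor of the kinase PERK, had 119 and 116 CPM against 102 and 104 CPM (log2 fold change -0.19 ± 0.069 SE, FDR 0.030). In all 3 genes both GSI libraries lay below both DMSO libraries, by small margins. Without DMSO replicate 1, 0 of the ER members was called lower (FDR 0.111 for Hspa13, 0.0969 for Dnajb14 and 0.178 for Dnajc3), and without GSI replicate 1 only Dnajb14 was (0.0221). Dnajb14 was also lost without GSI replicate 2 (0.0620), and Dnajc3 without DMSO replicate 2 (0.0725) or without the filter (0.0542). Over the alternatives the FDRs ran from 0.0019 to 0.131 for Hspa13, 0.0026 to 0.0969 for Dnajb14 and 0.0093 to 0.178 for Dnajc3.

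The other ER J-domain proteins were not called. Dnajb9 (ERdj4), which restrains the sensor IRE1, had 42.8 and 36.2 CPM with DMSO and 46.5 and 44.2 CPM with GSI (log2 fold change 0.20 ± 0.083 SE, FDR 0.058). It crossed the threshold without the filter (FDR 0.044) and with the replicate block (0.0089). With 1 library left out its log2 fold change ran from 0.081 to 0.32. Dnajb11 (ERdj3), the BiP partner of highest level per length, had 183 and 188 CPM against 196 and 193 CPM (log2 fold change 0.067, FDR 0.459).

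The ER stress element, a CCAAT box 9 bases before CCACG that ATF6 and NF-Y bind, was found in the promoter windows of 3 members, Hspa5, Hsp90b1 and Dnajc3, and in 0.137% of all genes with a window. It is printed because those genes, 2 without a call and 1 slightly lower, carry the motif of the ER stress response. Capitals mark it, on the reverse strand in the second copy of Hsp90b1. The Hspa5 stretch is chr2:34772019-34772048 on the plus strand, inside an annotated Hspa5 exon, the Hsp90b1 stretch chr10:86705525-86705664 on the minus strand and the Dnajc3 stretch chr14:118937812-118937861 on the plus strand, all of GRCm38.p6.
Hspa5: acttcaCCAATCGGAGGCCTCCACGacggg
Hsp90b1: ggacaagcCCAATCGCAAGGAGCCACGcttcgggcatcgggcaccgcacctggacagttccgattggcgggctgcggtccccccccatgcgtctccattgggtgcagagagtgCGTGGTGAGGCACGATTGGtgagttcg
Dnajc3: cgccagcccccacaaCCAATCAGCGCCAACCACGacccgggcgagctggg

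Of the 8 tested members of other or unsure places, 1 was higher and 1 lower (12.5% each, below the 19.0% and 21.9% of all genes). Dnajc13 (RME-8), a J-domain protein of endosomes, had 122 and 109 CPM with DMSO and 93.9 and 92.5 CPM with GSI (log2 fold change -0.31 ± 0.073 SE, FDR 0.0020; 0.0592 without DMSO replicate 1, and 1.84e-05 to 0.0592 over the alternatives). Hspbap1, named for its binding to a small heat shock protein, had 4.00 and 4.12 CPM against 5.69 and 5.02 CPM (log2 fold change 0.40 ± 0.13 SE, FDR 0.020). It was not called with DESeq2 (0.138) or without DMSO replicate 1 (0.0748), DMSO replicate 2 (0.0577) or GSI replicate 1 (0.131), and its FDR over the alternatives ran from 0.0049 to 0.138. Dnajc5 (cysteine string protein), a co-chaperone of vesicle release, did not pass the test at 112 and 114 CPM against 109 and 111 CPM. Dnajc4 did not either, with overlapping groups at 10.7 and 11.2 CPM against 11.4 and 10.2 CPM (log2 fold change -0.017 ± 0.0997 SE, FDR 0.909).

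Summed over all members, the chaperone pool came to 9269 and 9243 CPM with DMSO against 9426 and 9331 CPM with GSI, a difference of the means of 1.32%. Within it the mitochondrial sum was 557 and 560 CPM with DMSO but 855 and 787 CPM with GSI, 46.9% higher by the means. Hspa9 held 56.8% of it over the 4 libraries. The cytosolic and nuclear sum was 4325 and 4345 CPM with DMSO against 4423 and 4212 CPM with GSI, so that the groups overlapped. The ER sum of 4118 and 4079 CPM with DMSO and 3907 and 4095 CPM with GSI overlapped as well. With 2 libraries per group no exact test of these sums can give a p under 0.33, so they are descriptions.

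**Figure D3:**
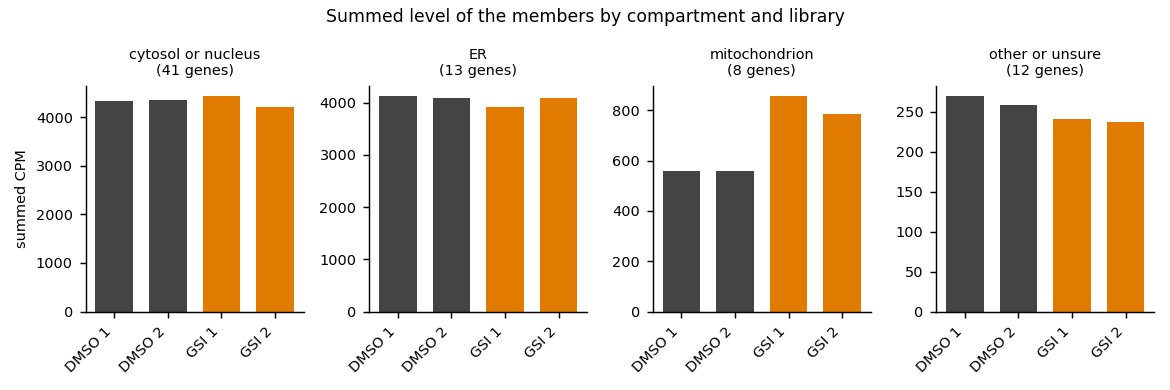
Summed CPM of the members of each compartment in each library (bars from 0; the vertical axis differs between panels), with DMSO in gray and GSI in orange. The mitochondrial bars are 855 and 787 CPM with GSI against 557 and 560 CPM with DMSO, whereas the cytosolic and ER bars overlap between groups.

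The levels are compared between genes only per length of exons, as CPM per kilobase averaged over the 4 libraries. On this scale Hspa5 stood at 457, Hsp90ab1 at 392.3, Hspa8 at 354 and Hsp90b1 at 342, followed by Hspa9 at 91.0, Dnaja2 at 90.5 and Hsp90aa1 at 63.4. The constitutive cytosolic and the ER chaperones thus led, and the inducible Hspa1a and Hspa1b stood at 6.18 and 6.10. Parts of this order differed between the groups. Hspa9 was below Dnaja2 with DMSO (67.5 and 68.8 against 91.8 and 87.9) and above it with GSI (121 and 107 against 92.0 and 90.4). Hsp90ab1 was below Hspa8 in both DMSO libraries and above it in both GSI libraries. In GSI replicate 1 it was also above Hspa5 (447 against 433). Hspd1 at 42.1 and Hspe1 at 34.9 were near each other. Altogether 55 members averaged above 1 CPM and 16 above 100 CPM.

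The partners of these chaperones were counted from lists chosen by function, with earlier results of these data known. The lists are thus not independent of the compartments above, and their counts are descriptions. Of 15 mitochondrial partners (nucleotide exchange factors, import motor subunits and proteases), 10 were higher (66.7%, against 19.0% of all genes) and none lower (against 21.9%) with GSI, with a median log2 fold change of 0.24. None was lower at an unadjusted p under 0.05 or in DESeq2, and DESeq2 called 5 higher. Htra2, a protease of the intermembrane space, had 52.6 and 50.6 CPM with DMSO and 78.8 and 77.1 CPM with GSI (log2 fold change 0.60 ± 0.071 SE). Pam16, an import motor subunit, had 3.46 and 4.99 CPM against 6.06 and 7.25 CPM (log2 fold change 0.64 ± 0.15 SE). With 1 library left out that fold change ran from 0.41 to 0.94. Hscb, the J-domain protein of iron-sulfur cluster assembly, whose symbol falls outside the member rule, had 11.6 and 11.2 CPM against 15.1 and 15.6 CPM (log2 fold change 0.43 ± 0.092 SE). Htra2 shares 1288 exon bases with Loxl3 and Aup1 on the other strand, the larger of which had 34688 counts over the 4 libraries. The FDRs were 1.19e-06 for Htra2, 0.0019 for Pam16 and 0.00086 for Hscb. The mitochondrial HSP90, Trap1, had 75.2 and 75.8 CPM against 84.6 and 85.8 CPM and stood at the edge of the threshold (FDR 0.0503); it was named after its values were seen.

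Of 27 co-chaperones of cytosolic HSP70 and HSP90, 9 were higher (33.3%, against 19.0% of all genes) and 4 lower (14.8%, against 21.9%), with a median of 0.13. Fkbp4 and Fkbp5, immunophilins that compete for the HSP90 complex of steroid receptors, went in opposite directions. Fkbp4 rose from 24.1 and 26.6 to 39.0 and 37.0 CPM (log2 fold change 0.58 ± 0.080 SE, FDR 7.07e-06). Fkbp5 fell from 6.76 and 6.56 to 4.61 and 5.00 CPM (log2 fold change -0.47 ± 0.12 SE, FDR 0.0038). Sgtb, an HSP70-binding tetratricopeptide protein, fell from 2.77 and 2.36 to 1.47 and 1.36 CPM (log2 fold change -0.85 ± 0.19 SE, FDR 0.0010). Of 14 tested genes of the TRiC chaperonin and its helper prefoldin, which fold actin and tubulin, 3 were higher (Pfdn6 at 0.36, Pfdn1 at 0.24 and Cct3 at 0.18). This was 21.4%, near the 19.0% of all genes. None was lower, also at an unadjusted p under 0.05 and in DESeq2, which called 1 higher. Cct3 was called in 2 of 10 alternatives, was lost with DESeq2 (0.0687) and under each other normalization and filter, and was lost without DMSO replicate 1 (FDR 0.221), DMSO replicate 2 (0.131) or GSI replicate 2 (0.242), and Pfdn1 was lost with DESeq2 (0.0622) and without DMSO replicate 1 (0.213) or GSI replicate 1 (0.118).

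Of 25 ER folding and degradation partners, 6 were higher (24.0%) and 7 lower (28.0%), near the 19.0% and 21.9% of all genes, with a median of 0.071. Creld2, a secreted ER stress protein, rose from 51.3 and 48.4 to 65.6 and 68.9 CPM (log2 fold change 0.43 ± 0.073 SE, FDR 7.98e-05). Uggt1, the glucosyltransferase that senses misfolded glycoproteins, fell from 123 and 125 to 90.01 and 101 CPM (log2 fold change -0.38 ± 0.073 SE, FDR 2.89e-04). Derl3, a subunit of the retrotranslocation channel, fell from 3.56 and 3.82 to 2.23 and 2.57 CPM (log2 fold change -0.62 ± 0.15 SE, FDR 0.0029).

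Among 7 genes of the unfolded protein response sensors 0 were higher in edgeR (2 at an unadjusted p under 0.05, 0 with DESeq2) and 2 were lower (28.6%, against 21.9% of all genes). Atf6, the sensor that becomes a transcription factor of ER chaperones, had 191 and 173 CPM with DMSO and 126 and 130 CPM with GSI (log2 fold change -0.51 ± 0.072 SE, FDR 9.43e-06). Mbtps2, the protease that releases it, had 31.3 and 30.2 CPM against 25.4 and 27.6 CPM (log2 fold change -0.21 ± 0.080 SE, FDR 0.038). The latter was not called with DESeq2 (0.0969), without the filter (0.0648), or without DMSO replicate 1 (0.161), DMSO replicate 2 (0.0675) or GSI replicate 1 (0.224). Xbp1, the other main activator, had 141 and 139 CPM against 150 and 162 CPM (log2 fold change 0.16 ± 0.071 SE, FDR 0.083). It passed with the replicate block (FDR 0.0402), and with 1 library left out its log2 fold change ran from 0.098 to 0.21. Counts per gene do not show the splicing that activates its mRNA.

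Hsf1, the heat shock factor, had 23.7 and 22.6 CPM with DMSO and 24.5 and 25.6 CPM with GSI and was not called (log2 fold change 0.11 ± 0.081 SE, FDR 0.278). Of the 4 tested genes of the heat shock factor list, Hsf1 included, 1, Hsbp1, was higher, against 19.0% of all genes (log2 fold change 0.21 ± 0.076 SE, FDR 0.035), and this call was lost with DESeq2 (0.0668) and without DMSO replicate 2 (0.238) or GSI replicate 1 (0.322). Of 18 tested genes of the classic heat shock response, 6 were higher (33.3%, against 19.0% of all genes) and 5 lower (27.8%, against 21.9%), with a median log2 fold change of 0.055 (-0.014 without GSI replicate 1). Most of them are members described above. Of those that are not members, 2 were higher (Fkbp4, and Ahsa1 at a log2 fold change of 0.23) and 3 were not called. The 1 lower was Bag3, an exchange factor of selective autophagy, at 75.3 and 70.3 against 61.3 and 55.5 CPM (log2 fold change -0.32 ± 0.076 SE, FDR 0.0021). Ahsa1 and Bag3 were named after their values were seen.

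**Figure D4:**
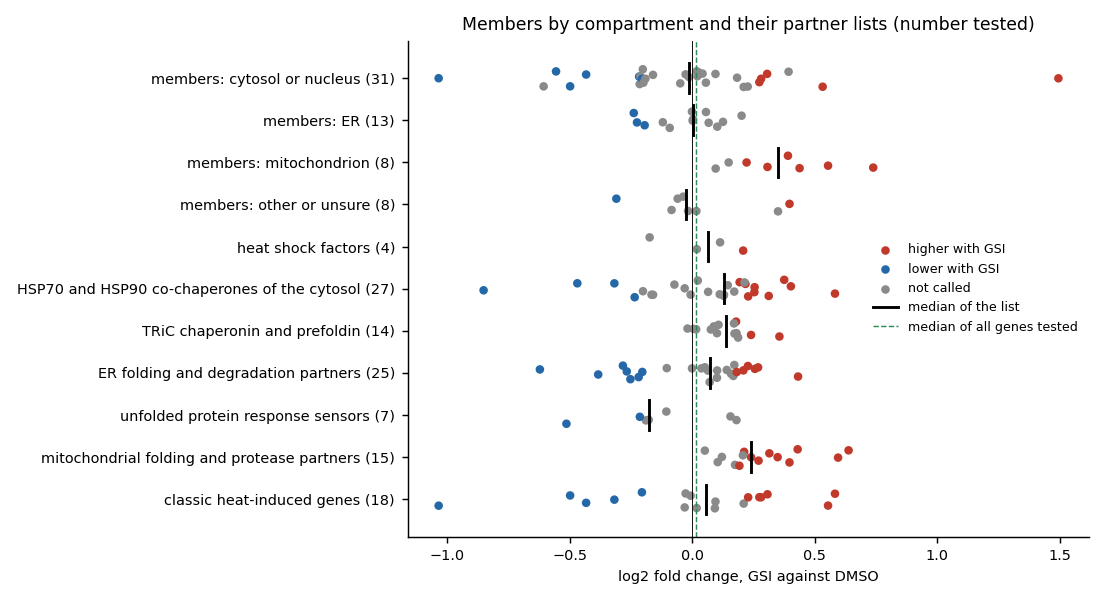
Log2 fold changes (GSI against DMSO) of the tested members by compartment and of the 7 partner lists, one point per gene, with the number tested in parentheses; black bars are medians and the dashed line is the median of all genes tested. The mitochondrial members and partners lie at medians of 0.35 and 0.24 with no point below 0, the sensors of the unfolded protein response at -0.18.

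RefSeq promoter windows (250 bases before to 50 after a start site, GRCm38.p6) were held for 60 of the 74 members, not including Hspa8, Hspa9, Hsp90aa1 and Hsp90ab1, and were searched on both strands. The pair of heat shock units GAANNTTC was found in 14 of 60 members (23.3%) and in 9.04% of all 27025 genes with a window, and TTCNNGAA in 6 of 60 (10.0%) against 9.60%. The three-unit element, in which these pairs overlap by a shared GAA or TTC, was found in 4 members (6.67%), Hspd1, Hspe1, Hsph1 and Dnajb6, against 0.662%. Of these 4, Hspd1 and Hspe1 were higher with GSI and the others were not called. The Hspd1 and Hspe1 matches are the same bases read from opposite strands, and the promoters of Hspa1a and Hspa1b are near-identical. Matches within these pairs are thus not independent, though the shares count each gene. The ATF6 core TGACGTG was in 3 members (5.00%, against 2.22% of all genes), the C/EBP-ATF4 composites TGATGCAA and TGATGAAA in 0 and 1 (against 1.03% and 1.15% of all genes), and the RBPJ core GTGGGAA, the letters read by the DNA-binding partner of Notch, in 2 of 60 (Hspb1 and Dnajc28) against 7.25% of all genes. A match describes letters in these windows only.

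**Figure D5:**
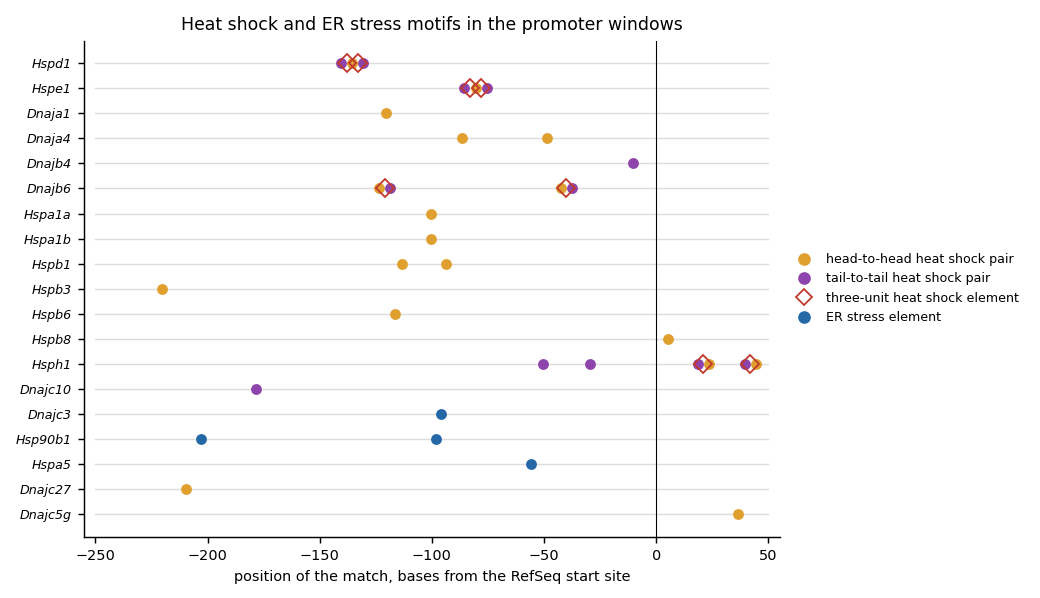
Positions of heat shock and ER stress motifs in the promoter windows of the members that hold any, in bases from the RefSeq start site (0); points are single motifs and open diamonds three-unit heat shock elements. Dnajb6 and Hsph1 have 2 start sites each and show the same motif once per start, while the chaperonin pair Hspd1 and Hspe1 shares its element from opposite sides.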

How the data were processed

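Poly(A) RNA of LPS/IC-activated BMMs was made into strand-specific libraries, and the authors trimmed reads with Trimmomatic, aligned them to the mouse genome (mm10) with STAR (2.5.0a in the submitters' processing notes) and counted them per gene with HTSeq, whose mode and strand setting are not given in the sources used here. The deposited values are raw counts of 47069 Ensembl genes in 16 columns, without normalization. The 4 columns of a replicate, taken as runs, were summed; over genes with at least 40 counts their chi-square per degree of freedom was 1.007 to 1.034, against 14.7 and 16.6 between replicates.

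Counts were tested with edgeR 4.0.16 (R 4.3.3; quasi-likelihood F test, filterByExpr, TMM, group as the only term), tested beforehand on simulated data. CPM used TMM-adjusted library sizes. A standard error is the absolute log2 fold change over the root of F, and called means an FDR under 0.05. The same comparison was repeated with DESeq2 1.42.0, with RLE factors, with plain library sizes, without the filter, with a minimum of 10 counts in each library, with a replicate block, and without each library in turn, where the remaining library of a group is assumed to vary like the others.

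Named members were, per compartment, the 6 largest called changes in each direction at a mean of at least 1 CPM, the 4 highest levels per length, and 16 chaperones chosen by name; of each partner list the 3 largest called changes were named, with Hsf1 and Xbp1. Members, lists and compartments were chosen with earlier results of these data known. Exon lengths and positions came from GENCODE M21 (GRCm38), which held 98.77% of the IDs and all 74 members. Promoter windows were those of RefSeq. Protein sequences were not analysed here.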

Additional observations from a re-analysis of the deposited data

How the results depend on the processing

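The alternatives were run for the members and for the 17 partners named by rule, of which no called value changed sign; 11 of the 22 called members (7 higher, 4 lower, 5 of them mitochondrial) were called in each of the 10 alternatives. With the replicate block 8 cytosolic and nuclear members and 1 ER member were higher, 28 members were called in place of 22, and Hspa12a passed both thresholds (log2 fold change 1.51). Same-numbered libraries deviated together at r = 0.1545 across 13211 genes, but only 2 pairs exist and the labels share only a number, so the block is no evidence of a weaker or stronger effect. Without the filter 1 ER member was higher, and with DESeq2 no member of other or unsure places was higher (0). Leaving out 1 library gave 9 to 14 members higher and 5 to 8 lower; for the compartments these were 4 to 7 and 4 to 5 (cytosol or nucleus), 0 to 1 and 0 to 2 (ER), 5 to 6 and 0 (mitochondrion) and 0 to 1 and 0 to 1 (others). The medians ran from -0.061 to 0.035 (cytosolic and nuclear members), -0.034 to 0.024 (ER members), 0.12 to 0.14 (TRiC and prefoldin), 0.0085 to 0.11 (heat shock factors), -0.20 to -0.12 (unfolded protein response sensors), 0.24 to 0.29 (mitochondrial partners) and -0.014 to 0.15 (classic heat-induced genes). The last of these, the cytosolic and the ER median changed sign. Depth limited the 14 members not tested.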
